A study of Mus musculus with 12 samples.

Results

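Genes that mark macrophages and other leukocytes were measured in cultures of ISEMFs (intestinal subepithelial myofibroblasts) from mouse colon, contractile stromal cells that underlie the gut lining. The 40 genes were listed by name, as pan-leukocyte surface genes, macrophage markers, complement, MHC class II, integrin, Fc receptor, lectin and chemokine receptor genes. Of these, 39 had a probe on the Illumina bead array among the 19057 genes with one, and Cd68 was not analysed here. A gene was tested if its probe stood above the negative control beads in at least 3 of the 12 hybridisations (detection p under 0.05), which 26 of the 39 did among 11060 genes tested. The 12 arrays came from 6 lines isolated from mouse colons. KO4, KO10 and KO15 lacked the miR-143/miR-145 microRNA cluster, and WT5, WT7 and WT13 were wild type for it. Each line was profiled once after lipopolysaccharide (LPS, a bacterial outer membrane glycolipid) at 1 ug/mL for 24 h and once without it, so there were 4 groups of 3 arrays. All cultures grew in high-glucose DMEM with serum (FBS, 10%), insulin and transferrin (10 ug/mL each), an antibiotic mix and EGF at 2 ng/mL. The labels give neither the age and strain of the mice nor whether each line had its own donor mouse. Every p-value therefore reflects variation among these lines, some of it possibly technical. The null allele is described only as lacking the microRNA cluster, and the microRNA locus itself was not analysed here.

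Macrophages arise under the transcription factor PU.1, encoded by Spi1, and depend on signals through the receptor Csf1r. They engulf particles through Fc and lectin receptors, many of which signal through the ITAM adaptors Fcer1g and Tyrobp, and tissue macrophages are a main source of the complement chains C1qa, C1qb and C1qc. The intestine holds a large resident macrophage population, and bacterial LPS is a classical activator of these cells. Myofibroblasts are of mesenchymal origin and are recognised by contractile genes such as Acta2 and Myh11.

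Contractile genes were detected in all cultures. Of 15 contractile and myofibroblast genes, 14 were detected on all 12 arrays, and their summed background-corrected signals were 104172 to 110691 in KO lines with LPS, 123889 to 128114 in untreated KO lines, 99353 to 113955 in WT lines with LPS and 128123 to 130981 in untreated WT lines. Between 42.5% and 44.7% of the probes were detected per array. The untreated arrays lay on one slide and the LPS arrays on another, and the effects of LPS and of the slide cannot be told apart. On each slide the WT lines held the first positions and the KO lines the last ones, and each line held the same position on both slides. Array position likewise cannot be told apart from genotype or from line, also where a line order recurs on both slides. The WT13 array with LPS stood apart: among the LPS arrays it was the lowest for 31.9% of all genes and the highest for 24.5%, and several counts that use it are also given without that line, an alternative chosen after seeing the data.

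Some of the listed leukocyte transcripts were detected in every culture. Each array detected 16 to 26 of the 39 genes. That was 41% (KO4) to 66.7% (untreated WT5) of them, against 42.5% to 44.7% of all probes, a share not limited to 1 probe per gene. There were 13 genes detected on all 12 arrays, 13 on 3 to 11 arrays, 3 on 1 or 2 arrays and 10 on none. The fewest were found in line KO4, with 16 genes both with LPS and without, and the most on a single array were the 26 of untreated WT5. WT5 had 23 with LPS, and KO10 had 25 with LPS and 25 without. Because these are bulk RNA samples, fewer cells of a type and less RNA per cell cannot be told apart.

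**Figure D1:**
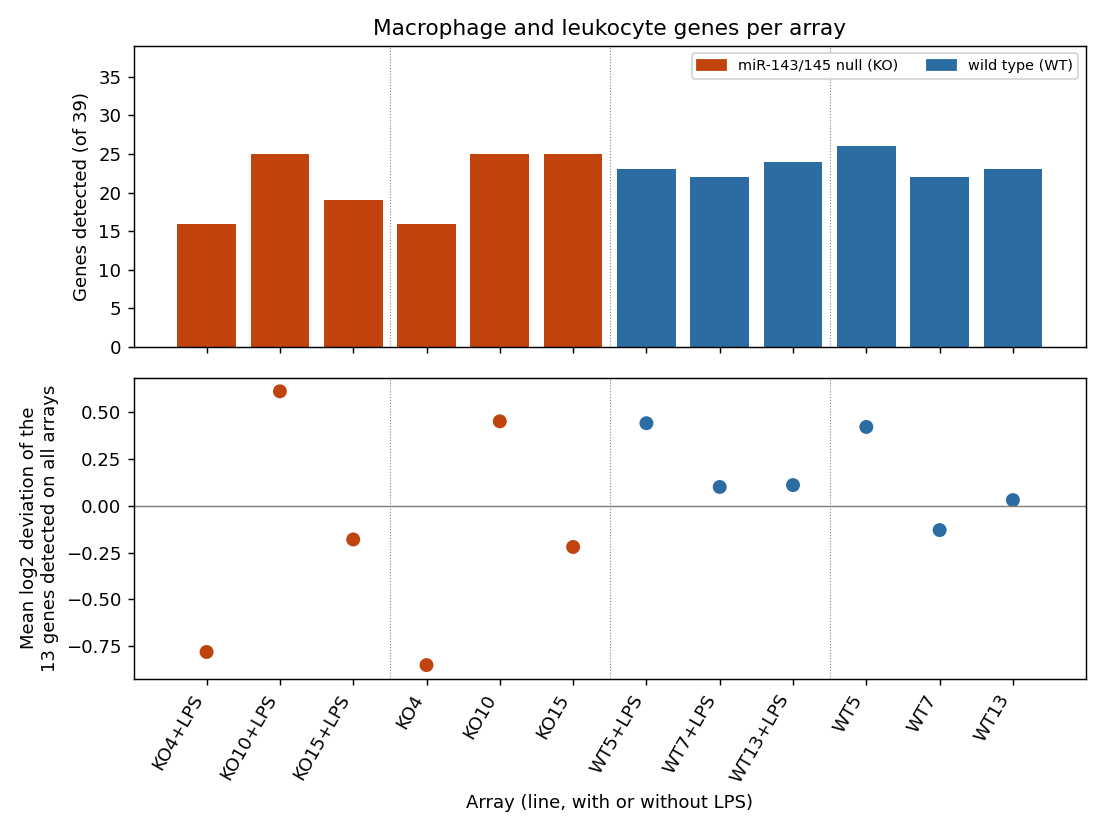
Number of the 39 macrophage and leukocyte genes detected (vertical axis, detection p under 0.05) on each of the 12 arrays, 1 bar per array with KO lines left of WT lines. The bars run between 16 in KO4 and 26 in untreated WT5.

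The genes missing throughout included defining leukocyte markers. Ptprc, which encodes the pan-leukocyte phosphatase CD45, was detected on no array. The same held for the integrin alpha chains Itgam and Itgax, the high-affinity IgG receptor Fcgr1, the MHC class II chain H2-Aa and its invariant chain partner Cd74. It also held for the scavenger receptors Msr1 and Cd163 and the chemokine receptors Ccr2 and Cx3cr1, which guide monocytes and resident macrophages. The class II chain H2-Eb1, the integrin beta chain Itgb2 and the beta-glucan receptor Clec7a were detected on 2 arrays each and were not tested. A probe that is not detected gives only an upper bound on its transcript, and the performance of these probes was not tested.

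The 13 genes found on all arrays spanned every role except the integrins and the chemokine receptors. They were the lysosomal membrane gene Laptm5, the tetraspanin Cd53, the glycopeptide Cd52 and the actin regulator Coro1a among the pan-leukocyte genes. The macrophage genes were Spi1, Csf1r, Aif1, Ms4a7 and Lyz2, which encodes lysozyme. The others were C1qc, the class II chain H2-Ab1, the adaptor Fcer1g and the lectin Clec4d.

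The upstream regions of 4 genes that carry the results below are shown because a pair of them (Laptm5, C1qb) went down and a pair (Fcer1g, Clec4d) went up with LPS while the line order was shared. Each is the 250 bases before the RefSeq gene start (GRCm38.p6), 5′ to 3′ on the gene's strand, and capitals mark GAGGAA or, on the other strand, TTCCTC, a core motif of PU.1.
Laptm5, chr4:130913066-130913315, plus strand: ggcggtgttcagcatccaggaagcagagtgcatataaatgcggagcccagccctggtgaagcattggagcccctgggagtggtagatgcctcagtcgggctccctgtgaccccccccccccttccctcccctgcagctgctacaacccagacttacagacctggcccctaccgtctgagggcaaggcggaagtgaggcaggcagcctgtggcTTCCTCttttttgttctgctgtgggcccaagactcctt
C1qb, chr4:136886201-136886450, minus strand: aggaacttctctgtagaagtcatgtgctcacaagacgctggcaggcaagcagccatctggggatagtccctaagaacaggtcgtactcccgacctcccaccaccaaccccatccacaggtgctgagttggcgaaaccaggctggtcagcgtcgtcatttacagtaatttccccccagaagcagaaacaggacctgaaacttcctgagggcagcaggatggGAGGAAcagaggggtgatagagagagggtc
Fcer1g, chr1:171234350-171234599, minus strand: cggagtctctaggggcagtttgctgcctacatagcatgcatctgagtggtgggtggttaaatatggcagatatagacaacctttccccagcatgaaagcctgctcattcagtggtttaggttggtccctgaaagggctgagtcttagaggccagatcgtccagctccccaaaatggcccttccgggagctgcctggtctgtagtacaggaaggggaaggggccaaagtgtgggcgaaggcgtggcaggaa
Clec4d, chr6:123261857-123262106, plus strand: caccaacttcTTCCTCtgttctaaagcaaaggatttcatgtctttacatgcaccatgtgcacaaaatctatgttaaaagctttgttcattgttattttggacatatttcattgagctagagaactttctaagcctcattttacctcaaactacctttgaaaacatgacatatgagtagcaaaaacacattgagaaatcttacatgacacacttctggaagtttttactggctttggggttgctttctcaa
The match lay 38 bases before the gene start in Laptm5, 30 bases before it in C1qb and 240 bases before it in Clec4d, and the window of Fcer1g held none. Counting either strand, 15 of the 29 listed genes with a sequence (51.7%) held a match in this window, against 6986 of 27025 genes in the table (25.9%). A match is a string of letters and not a binding site.

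The level of the macrophage genes differed from line to line. Line KO4 was low and lines KO10 and WT5 were high for most of the detected genes, with KO15, WT7 and WT13 in between. Laptm5 stood at a log2 intensity of 6.26 in KO4, 8.41 in KO10 and 7.44 in KO15 with LPS, and at 7.06, 9.39 and 8.06 in the same KO lines without it. In WT5, WT7 and WT13 it stood at 8.46, 7.83 and 7.59 with LPS, and at 9.41, 8.55 and 8.91 without. KO4 was thus lowest and KO10 and WT5 within 0.05 of each other at the top, on either slide. Lyz2 had 8.42, 10.32 and 9.28 in KO4, KO10 and KO15 with LPS, and 9.10, 11.32 and 10.19 without. It had 10.16, 9.82 and 9.94 in WT5, WT7 and WT13 with LPS, and 11.05, 10.36 and 10.61 without. The KO values bracketed the WT values in both conditions. Ms4a7, a membrane gene of macrophages, followed the same order, at 5.16, 7 and 5.81 in the KO lines with LPS and 5.36, 7.21 and 6.13 without, against 6.99, 6.61 and 6.48 in WT5, WT7 and WT13 with LPS and 7.02, 6.39 and 6.67 without.

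**Figure D2:**
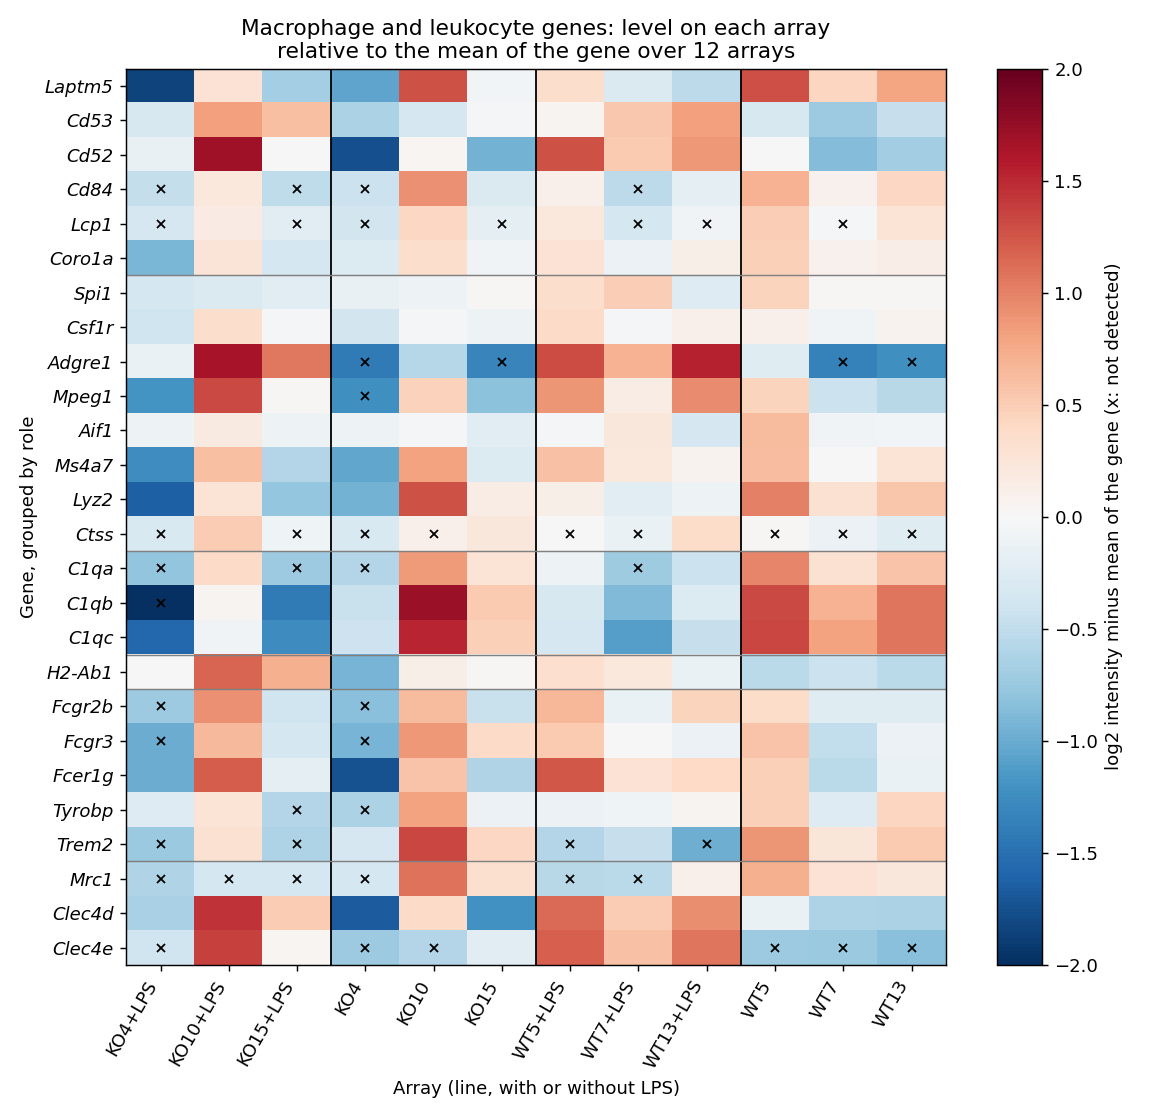
Log2 intensity of each of the 26 tested genes (rows) on each of the 12 arrays (columns, KO left of WT and LPS left of untreated), as the deviation from the gene's mean over the arrays, on a colour scale that ends at -2 and 2. The KO4 columns are low for most genes, and the KO10 and WT5 columns are high.

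The order of the lines was counted over the 26 tested genes. KO4 was the lowest line for 20 genes with LPS and for 23 without, against 14.5% and 17.1% of all genes tested, and for 18 genes in both conditions, against 5.84%. KO10 was highest for 17 genes with LPS and for 15 without, against 16.1% and 14.3% of all genes, and for 13 in both, against 4.88%. KO10 and WT5 were the highest pair for 15 genes with LPS, against 5.9% of all genes, and for 20 without, against 4.23%. With LPS and WT13 left out, they were the highest pair for 19 genes, against 8.78%. That pair led in both conditions for 13 of the 26 genes, against 0.759% of all genes. These counts were made after the line order had been seen and carry no test.

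The KO lines were spread more widely than the WT lines for most of the genes, a description with no test. Over line means, each the mean of a line's LPS and untreated array, the SD among KO lines was above that among WT lines for 24 of the 26 genes, against 46.1% of all genes. Without WT13 it was 23 genes, against 62.6%. The median SD was 0.66 among KO lines and 0.27 among WT lines on the log2 scale, and over all genes it was 0.1 and 0.11. Averaged over the 13 genes detected everywhere, the deviation from each gene's mean was -0.78 in KO4, 0.61 in KO10 and -0.18 in KO15 with LPS, and -0.85, 0.45 and -0.22 without it. In WT5, WT7 and WT13 it was 0.44, 0.1 and 0.11 with LPS, and 0.42, -0.13 and 0.03 without. The share of all probes detected in KO4 was 42.7% with LPS and 43% without, inside the range of the other arrays.

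Most of the genes moved together across the lines. Line means of the other 12 genes were set against Laptm5, the pan-leukocyte gene taken as the anchor because Ptprc was not detected. Over 6 lines, Pearson's r was 0.96 to 0.99 for 8 genes: Cd52, Coro1a, Csf1r, Ms4a7, Lyz2, C1qc, Fcer1g and Clec4d. All 8 passed an exact permutation test after Benjamini-Hochberg adjustment over the 12 relations (two-sided, adjusted p 0.00476 to 0.00625, or 0.0167 to 0.025 for Spearman's rho of 0.94 to 1). Lyz2 gave r = 0.99 and rho = 0.94, and its line means were 8.76, 10.82 and 9.74 in KO4, KO10 and KO15 and 10.61, 10.09 and 10.27 in WT5, WT7 and WT13. Fcer1g gave r = 0.99 and rho = 0.94, with line means of 6.73, 8.98 and 7.7 in the KO lines and 8.96, 7.97 and 8.23 in the WT lines. Without KO4 and WT5, the lines farthest from the median of Laptm5, r was 0.88 to 0.99 for the same 8 genes over the 4 lines left, too few for a test. The same 8 genes passed on the LPS arrays alone and on the untreated arrays alone. The share of all genes that pass this test against Laptm5 is not given here, so the count has no background beside it.

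The remaining 4 genes did not pass. Cd53 gave r = 0.55 (exact permutation adjusted p = 0.317) and rho = 0.09 (adjusted p = 0.919). Spi1 gave r = 0.51 and rho = 0.49, and without KO4 and WT5 its r was -0.33. Aif1, a calcium-binding protein of activated macrophages, gave r = 0.61 and rho = 0.49. H2-Ab1 gave r = 0.51 and rho = 0.49, with line means of 5.99, 7.09 and 6.82 in KO4, KO10 and KO15 and 6.35, 6.35 and 6.11 in WT5, WT7 and WT13. The plot of line means shows KO15 above all WT lines for H2-Ab1 although it lay below them for Laptm5.

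**Figure D3:**
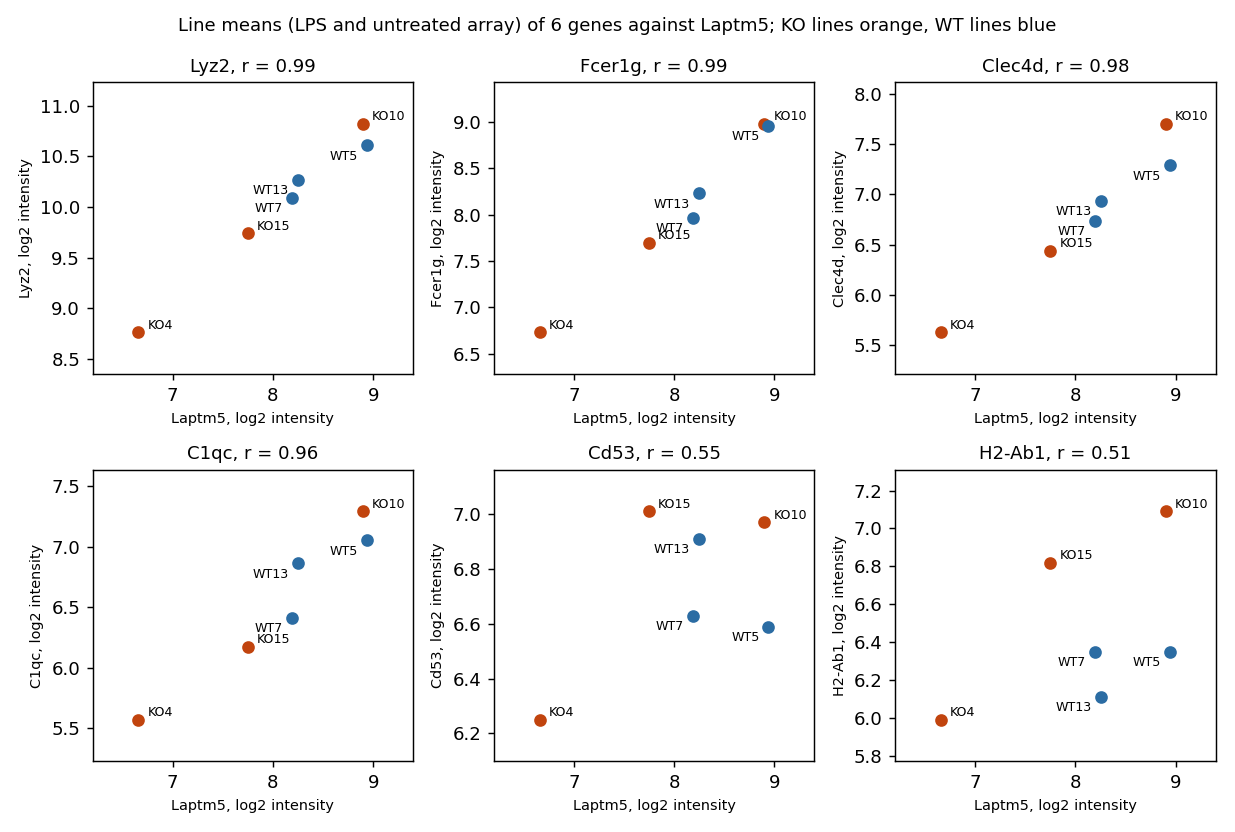
Line means of 6 genes (vertical axes, log2 intensity) against that of Laptm5 (horizontal axis, log2 intensity), 1 point per line, KO lines orange and WT lines blue. Lyz2, Fcer1g, Clec4d and C1qc rise with Laptm5 from KO4 up to KO10 and WT5 (r = 0.96 to 0.99), and Cd53 and H2-Ab1 do not pass the test (r = 0.55 and 0.51).

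No macrophage or leukocyte gene was called between KO and WT lines. With LPS, 0 of 26 passed an adjusted p of 0.05 in limma, against 0.325% of all genes tested, and 1 had an unadjusted p under 0.05, against 10.8%. Without LPS it was 0 of 26, against 0.181%, with 0 below 0.05 unadjusted, against 9.11%. On the line means it was 0 of 26, against 0.127%, with 1 below 0.05 unadjusted, against 10.3%. The counts of 0 called genes held under every alternative that was run. The KO and WT values did not overlap for 0 of the 26 genes with LPS, against 13.2% of all genes, and for 1 (Clec4e) without LPS, against 18.7%. Leaving out WT13 made the count with LPS 1 (Spi1), against 24.3%. With LPS the difference KO minus WT was negative for 22 of the 26 genes (47.9% of all genes; 20 genes, against 50%, without WT13) with a median of -0.35, and without LPS for 21 (50.7%) with a median of -0.26. Without line KO4 the medians were -0.01 with LPS and 0.04 without it, so 1 line set the direction. Without KO10 they were -0.72 with LPS and -0.55 without.

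Laptm5 differed by less than the SD among the KO lines. It averaged 7.37 ± 1.07 in KO lines and 7.96 ± 0.45 in WT lines with LPS (SD, n = 3 each, limma adjusted p = 0.74). Without LPS it averaged 8.17 ± 1.17 in KO lines and 8.96 ± 0.43 in WT lines, a difference of -0.78 (SE 0.57, limma adjusted p = 0.789). Spi1 was the gene with an unadjusted p under 0.05. With LPS it stood at 4.93, 5 and 5.07 in KO4, KO10 and KO15, against 5.63, 5.78 and 5.02 in WT5, WT7 and WT13, a difference of -0.48 (SE 0.18, unadjusted p = 0.0181 and adjusted p = 0.355 in limma). The groups overlapped through WT13. H2-Ab1 had the opposite sign, at 7.08 ± 0.58 in KO lines and 6.59 ± 0.24 in WT lines with LPS (SD, n = 3 each, limma adjusted p = 0.573).

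The response to LPS split the genes into some that went up and some that went down, in lines with high and low levels alike. Without the line in the model, 5 of 26 genes were called in WT lines, 3 higher and 2 lower with LPS, against 22.8% of all genes (10.5% higher, 12.3% lower). In KO lines it was 3 of 26, 1 higher and 2 lower, against 14.7% (7.45% higher, 7.22% lower). Each line was measured with and without LPS. With the line as a block, which takes out the differences between lines, 16 genes were called in WT lines (8 higher, 8 lower), against 27.1% of all genes (12.2% higher, 14.9% lower). In KO lines it was 12 (6 higher, 6 lower), against 17.4% (8.58% higher, 8.8% lower). The LPS and untreated values did not overlap for 2 of the 26 genes (Adgre1 and Spi1) in KO lines, against 37.1% of all genes, and for 13 in WT lines, against 39.9%. Without WT13 the count in WT lines was also 13, against 57.6%. All 12 called in KO lines were also called in WT lines, and both fits share their estimate of the spread. In the background, the split of all calls between higher and lower depended on the scaling. Calls were higher in 50.8% of cases in KO lines and 46% in WT lines, but in 31% and 32.6% when raw signals were scaled to the 75th percentile.

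The genes of the complement C1q chains fell with LPS. C1qb, a chain of the first component of the classical pathway, had 4.80, 6.92 and 5.46 in KO4, KO10 and KO15 with LPS, against 6.43, 8.59 and 7.40 in the same lines untreated. For WT5, WT7 and WT13 they were 6.55, 5.99 and 6.60 with LPS, against 8.19, 7.57 and 7.94 untreated. Every line was lower with LPS, with log2 changes of -1.95 to -1.34, although the KO groups overlapped because the lines differed so much. C1qb changed by -1.75 in KO lines (SE 0.53, limma adjusted p = 0.0465, or 3.34e-05 with the line as a block) and by -1.52 in WT lines (limma adjusted p = 3.52e-05 with the block, not called without it). C1qc changed by -1.5 in KO lines (SE 0.45, limma adjusted p = 0.044) and by -1.7 in WT lines (SE 0.45, limma adjusted p = 0.0185). C1qa was called only with the block, at -0.56 in KO lines (limma adjusted p = 0.0244) and -1.03 in WT lines (limma adjusted p = 0.00109). The probe of C1qa was detected in 1 KO line with LPS and 2 without, and in 2 WT lines with LPS and 3 without. On the authors' processed values C1qb changed by -0.87 and C1qc by -0.7 in KO lines and neither was called (limma adjusted p = 0.0631 and 0.0604).

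Trem2, Laptm5 and Lyz2 fell as well. Trem2, a lipid-sensing receptor that signals through Tyrobp, stood at 4.73, 5.77 and 4.86 in KO4, KO10 and KO15 with LPS, against 5.14, 6.8 and 5.89 untreated. In WT5, WT7 and WT13 it stood at 4.88, 5.01 and 4.50 with LPS, against 6.36, 5.71 and 6 untreated, a change of -1.23 (SE 0.37, limma adjusted p = 0.0321). On the authors' processed values its change in WT lines was -0.4 and not called (limma adjusted p = 0.0576). In KO lines its change of -0.82 was called only with the block (limma adjusted p = 0.0143). Laptm5 fell in all 6 lines, with the block by -0.8 in KO lines (limma adjusted p = 0.00315) and -0.99 in WT lines (limma adjusted p = 0.000848). Lyz2 fell in all 6 lines too, with the block by -0.87 in KO lines (limma adjusted p = 0.000857) and -0.7 in WT lines (limma adjusted p = 0.00209). A second probe of Lyz2 gave -0.26 in KO lines and 0.17 in WT lines, so its probes disagreed in WT. In WT lines the block also called the adhesion receptor Cd84 at -0.59 and the actin bundler Lcp1 at -0.31 (limma adjusted p = 0.00993 and 0.0335). Mrc1, the macrophage mannose receptor, was lower in all 6 lines but passed no test. In KO lines it was detected on 2 untreated arrays and on no LPS array, and it changed by -0.79 (limma adjusted p = 0.096).

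Of the macrophage markers, Adgre1 rose with LPS. The gene, which encodes a classical macrophage surface receptor, had 5.75, 7.53 and 6.94 in KO4, KO10 and KO15 with LPS, against 4.47, 5.31 and 4.56 untreated. In WT5, WT7 and WT13 it had 7.19, 6.57 and 7.41 with LPS, against 5.63, 4.53 and 4.65 untreated. It was detected on all LPS arrays and, untreated, only in KO10 and WT5, and the groups did not overlap in either genotype. The change was 1.96 in KO lines (SE 0.42, limma adjusted p = 0.00977) and 2.12 in WT lines (SE 0.42, limma adjusted p = 0.00466). A second probe of the gene gave 1.28 in KO lines and 2.14 in WT lines.

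The lectin receptors Clec4d and, in WT lines, Clec4e rose as well, whereas the lectin receptor Mrc1 was lower in all 6 lines without passing a test. Clec4d stood at 6.14, 8.23 and 7.30 in KO4, KO10 and KO15 with LPS, against 5.12, 7.17 and 5.58 untreated. WT5, WT7 and WT13 had values of 7.93, 7.30 and 7.72 with LPS, against 6.66, 6.17 and 6.16 untreated. All 6 lines rose by 1.02 to 1.71, and the fit with the block called it at 1.26 in KO lines (limma adjusted p = 0.000661) and 1.32 in WT lines (limma adjusted p = 0.000412). Its partner Clec4e, a sensor of mycobacterial glycolipid, was detected in no untreated WT line. With LPS it was at 6.47, 5.86 and 6.34 in WT5, WT7 and WT13, at least 2.46-fold higher (limma adjusted p = 0.00447). A second probe of Clec4e, detected on 3 arrays, gave smaller log2 changes with LPS of 0.31 in KO lines and 0.65 in WT lines. In KO4, KO10 and KO15 the first probe of Clec4e had 4.87, 6.64 and 5.31 with LPS, against 4.55, 4.68 and 5.04 untreated, and was not called. Its only detection without LPS was in KO15. The increase was 1.96 in KO10, and 0.31 and 0.27 in KO4 and KO15.

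Other genes that rose included Fcer1g and, of the pan-leukocyte group, Cd52 and Cd53, whereas Laptm5 and Cd84 of that group fell. Cd52 had 6.79, 8.64 and 6.94 in KO4, KO10 and KO15 with LPS, against 5.18, 6.97 and 6 untreated. The values in WT5, WT7 and WT13 were 8.21, 7.46 and 7.80 with LPS, against 6.95, 6.07 and 6.25 untreated. With the block it rose by 1.41 in KO lines (limma adjusted p = 0.000321) and 1.4 in WT lines (limma adjusted p = 0.000269). A second probe of Cd52, detected on 6 arrays, gave 0.7 in KO lines and 1.08 in WT lines. Cd53 rose by 0.98 in WT lines (SE 0.28, limma adjusted p = 0.025) and, only with the block, by 0.7 in KO lines (limma adjusted p = 0.0441). Fcer1g, the common gamma chain of Fc receptors, had 7.11, 9.30 and 7.92 in the KO lines with LPS, against 6.35, 8.66 and 7.49 untreated. In WT lines it had 9.34, 8.39 and 8.5 with LPS, against 8.58, 7.56 and 7.96 untreated. It was called only with the block, at 0.61 in KO lines (limma adjusted p = 0.0042) and 0.71 in WT lines (limma adjusted p = 0.00163). The same held for H2-Ab1, at 0.89 and 0.64 (limma adjusted p = 0.001 and 0.00447), although its other probes gave 0.03 and 0.16 in KO lines and 0.36 and 0.19 in WT lines. Mpeg1, a pore-forming protein of phagocytes, was called with the block in WT lines at 0.83 (limma adjusted p = 0.0233).

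**Figure D4:**
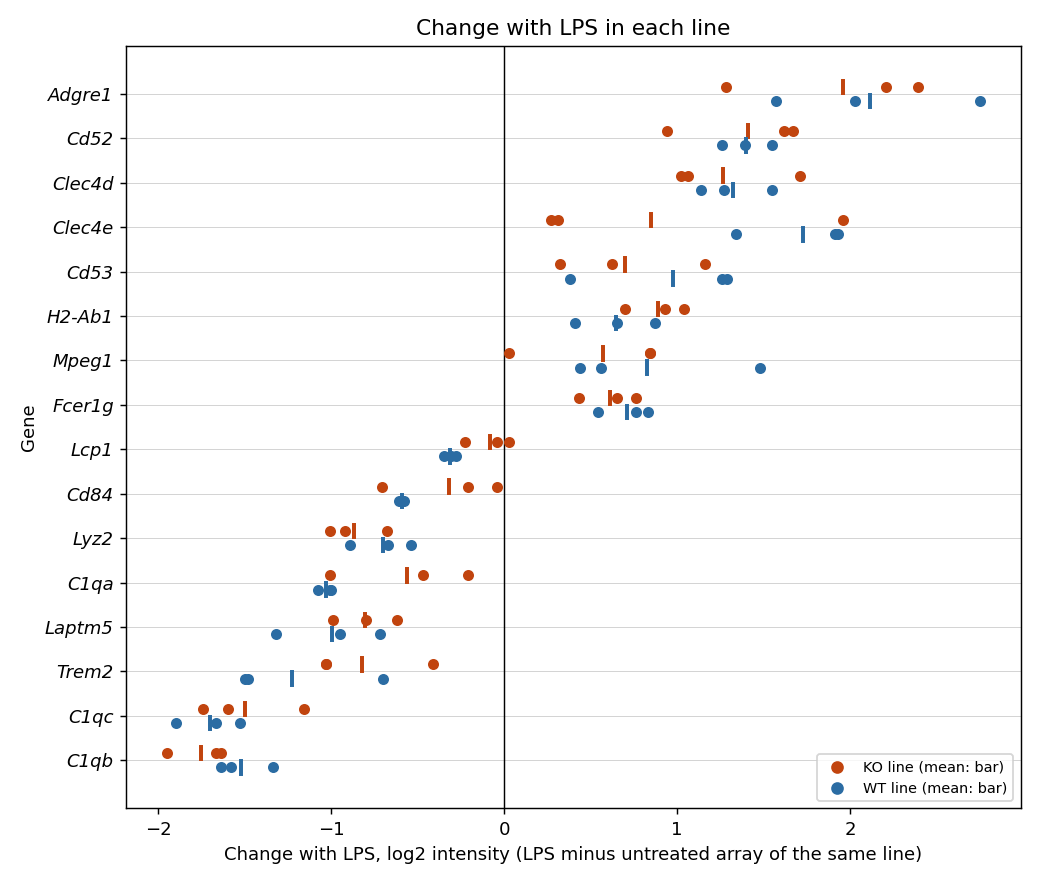
Change with LPS in each line (LPS minus untreated, log2 scale), 1 point per line, KO lines drawn above WT lines. Only the 16 of the 26 tested genes that were called with the line as a block are drawn. C1qb and C1qc lie left of 0 in all 6 lines (-1.95 to -1.16), and Adgre1, Cd52 and Clec4d lie right of 0 in all 6 lines.

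The calls changed when a line was left out. Each such fit has fewer arrays, so a lost call need not mean that it rested on that line. In fits with the block, 14 to 17 genes were called in WT lines and 9 to 12 in KO lines. In WT lines 13 of the 16 genes were called in all 3 such fits, and Cd53 and Mpeg1 in 2 and Lcp1 in 0. In KO lines 9 of the 12 were, and C1qa and Trem2 in 1 and Cd53 in 0. Without WT13, and with no block, 0 of these genes were called in WT lines, and the calls over all genes fell from 2526 to 1097. Without KO15, and with no block, 0 were called in KO lines, and the calls over all genes fell from 1622 to 686. All 6 lines were higher with LPS for 9 of the 26 genes, against 16% of all genes, and all 6 were lower for 9, against 22.3%. The macrophage lineage genes Spi1, Csf1r, Aif1 and Ms4a7 were called in neither direction in either genotype, by either fit. The same held for Coro1a, the cathepsin Ctss, the IgG receptors Fcgr2b and Fcgr3, the adaptor Tyrobp and Mrc1. Fcgr2b, the inhibitory receptor of this family, changed by 0.15 in KO lines and 0.36 in WT lines, and Fcgr3, an activating one, by -0.34 in KO lines and 0.14 in WT lines. Tyrobp changed by -0.21 in KO lines and -0.26 in WT lines, and Ctss, detected on 3 arrays, by 0.03 in KO lines and 0.19 in WT lines.

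The LPS change did not differ detectably by genotype for any of the 26 genes. The difference between the changes in KO and WT lines was called for 0 of the 26 genes and 0 of the 11060 genes tested, and 0 of the 26 had an unadjusted p under 0.05, against 3.54% of all genes. The block also called 0 of 26. The largest measured contrast among the called genes was in Clec4e, and it did not pass (KO10 aside, the KO lines moved by 0.27 and 0.31, and the WT lines by 1.34 to 1.93).

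Related cell markers were read beside these results. Calls for these lists come from the fit without the line as a block. In that fit 7.45% of all genes were called higher and 7.22% lower with LPS in KO lines, and 10.5% and 12.3% in WT lines. Of 37 other myeloid and haematopoietic genes with a probe, 21 were tested, and LPS raised 1 and lowered 1 in KO lines and raised 3 and lowered 1 in WT lines. Cd14, the LPS co-receptor, was higher with LPS by 1.43 in KO lines (SE 0.41, limma adjusted p = 0.0386) and by 1.62 in WT lines (SE 0.41, limma adjusted p = 0.0157). Mertk, a receptor for apoptotic cells, was lower by -0.78 in KO lines and -0.79 in WT lines (SE 0.17 each, limma adjusted p = 0.00914 and 0.00629). In WT lines Lst1 was higher by 0.69 and Slc11a1, a phagosomal metal transporter, by 0.57 (limma adjusted p = 0.031 and 0.00888). None of the 21 was called between KO and WT, with or without LPS (2 with LPS and 1 without had an unadjusted p under 0.05).

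On each single array, most markers of other leukocytes were undetected. An array detected at most 4 of 14 T and NK cell genes, 5 of 11 neutrophil genes and 4 of 10 mast cell genes. B and plasma cell markers gave 0 of 8 genes tested. Of 14 T and NK cell genes with a probe, 9 were detected on no array. Prf1 was detected on all 12 arrays, at log2 intensities of 8.2 to 8.78, and Cd247 on 9 arrays. Cd3e was detected on all 12 arrays and fell with LPS by -0.93 in KO lines and -1.26 in WT lines, while Cd3d and Cd3g, its partners in the T cell receptor complex, were detected on none. Of 11 neutrophil genes, 5 were detected on no array, S100a9 among them. Another 5 were tested and 3 rose in both genotypes, against 7.45% of all genes in KO lines and 10.5% in WT lines. S100a8, a calcium-binding alarmin also made by monocytes and some stromal cells, rose by 3.28 in KO lines and 3.33 in WT lines (SE 0.62 each, limma adjusted p = 0.00459 and 0.00308). Mmp9, a gelatinase also made by macrophages, rose by 3.18 and 2.76 (limma adjusted p = 0.000222 and 0.000365). Of 10 mast cell genes, 4 were detected on no array, 4 were tested and 0 were called. Gata2 of that list was detected on all 12 arrays, at 9.47 to 9.86. Among 5 epithelial genes tested 0 were called. Of 5 endothelial genes tested only Emcn was called, with KO minus WT differences of -0.74 with LPS and -0.8 without (limma adjusted p = 0.0447 and 0.035). Of the 15 contractile and myofibroblast genes, LPS lowered 5 in KO lines, and lowered 6 and raised 1 in WT lines. Myh11, smooth muscle myosin, changed by -1.5 in KO lines and -1.28 in WT lines (limma adjusted p = 0.000417 and 0.000758). The part of these shifts in the results above was not tested.

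Some signals that draw or sustain macrophages also rose. Of 8 growth factor and monocyte chemokine genes, 5 were called higher with LPS in KO lines and 4 in WT lines, against 7.45% and 10.5% of all genes. The called genes did not include Csf1, detected on all 12 arrays, or Il34, detected on 3. Ccl2, the main monocyte attractant, rose by 4.56 in KO lines (SE 0.5, limma adjusted p = 0.000187) and by 5.2 in WT lines (SE 0.5, limma adjusted p = 6.14e-05). Csf2, which encodes GM-CSF, rose by 3.5 and 3.55 (limma adjusted p = 0.000345 and 0.000201), and Ccl7 by 2.9 and 3.31. Their levels, like those of the macrophage genes, were measured in RNA of the whole culture, and which cells made them was not tested.

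Outside all lists, 10 genes followed the macrophage genes most closely, with r of 0.95 to 0.98 over the 12 arrays between their deviations from group means and the mean deviation of the 13 genes detected everywhere. They were Lyz1, Fcgr4, Slc15a3, Bcl2a1d, Cyth4, Ccl4, Cfp, Hk3, Ccl3 and Casp1. The arrays share lines, and the genes were chosen for this likeness, so it carries no test. Lyz1 is a close copy of Lyz2, and cross-hybridisation between their probes was not tested. A change with LPS was called for the same 3 of the 10 in both genotypes, against 14.7% of all genes in KO lines and 22.8% in WT lines. Ccl3, a chemokine of activated macrophages, rose by 3.86 in KO lines and 4.72 in WT lines (limma adjusted p = 0.000177 and 4.04e-05). Its close relative Ccl4 rose by 2.42 and 2.71 (limma adjusted p = 0.0163 and 0.00681), and the histidine transporter Slc15a3 by 2.04 and 1.67 (limma adjusted p = 0.0107 and 0.0199). In KO4, KO10 and KO15, Ccl3 had 8.30, 10.13 and 8.75 with LPS, against 4.64, 5.82 and 5.15 untreated. KO4 was lowest, a place that the choice of genes by their likeness to the macrophage genes makes likely.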

How the data were processed

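Deposited intensity values are linear bead signals without normalisation, per the file headers, and each probe carries a deposited detection p-value. Per the submitters' processing notes BeadStudio was used; no version or genome build is given in those sources. A second deposited table of the authors' processed intensity served as an alternative. No columns were left unused (0). Signals were normalised with neqc (limma 3.58.1, R 4.3.3), which fits background through detection p-values and applies an offset (16), quantiles and log2. Of 45281 probes, 34885 had 1 gene symbol in the platform annotation, 18 several and 10378 none. The 21124 probes detected on at least 3 of 12 arrays were kept, and the probe with the highest mean stood for its gene. Before this filter, 20 of the 39 genes had several probes. Where no array of a group detected a probe, a fold is a bound against the lowest detected signal.

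Group means over 12 arrays, and line means over 6 lines, were compared with lmFit and eBayes (two-sided, Benjamini-Hochberg, 0.05). The labels pair arrays of a line, and their deviations from group means correlated at 0.14 to 0.52, so the numbers pair the samples and line was also fitted as a block. The scripts were tested on simulated data. The number of arrays limits precision. Members and lists were chosen with earlier results of these data known. Every listed gene with a probe is named. Of the other lists, up to 4 called genes and some uncalled ones are named, with the 10 genes most like the detected members. Alternatives covered normalisation, detection filter, probe choice, arrays in the fit, the block and leaving out lines.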

Additional observations from a re-analysis of the deposited data

How the results depend on the processing

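No macrophage or leukocyte gene was called between KO and WT under any alternative run, and 8 relations with Laptm5 passed under each in which 6 lines were kept. With the line as a replicate block, the LPS calls among the 26 genes were 12 in KO lines, against 3 without it, and 16 in WT lines, against 5. The authors' processed values, no detection filter, detection on all 12 arrays and fitting only the arrays compared gave 1 call each in KO lines. In WT lines an offset of 50 gave 8 calls, detection on all 12 arrays 2 and only the arrays compared 13. Leaving out a line gave 0 (without KO15) to 6 calls in KO lines and 0 (without WT13) to 3 in WT lines. With the block, in fits chosen after seeing the data, it gave 9 without KO10 or KO15 and 12 without KO4, and 15 without WT5, 17 without WT7 and 14 without WT13. The median difference of LPS changes was -0.08, and -0.17 to 0.04 with a line left out. At a detection p of 0.01 the fewest genes detected on an array was 8 in place of 16. Over all genes, KO against WT with LPS called 36 genes, 17 with no detection filter and 7 with only the arrays compared, and without LPS 20, 34 with an offset of 50 and 3 with only the arrays compared. On line means it was 14, and 3 to 28 across alternatives that kept all lines. The cause was not tested. Genes near background limit what can be called: 13 of the 39 passed no filter.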
